A study of Mus musculus with 3 samples.

Results

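The mouse lacrimal gland (LG) was profiled by droplet single-cell RNA sequencing, and the cells described here are its *Wfdc2+* duct cells, 1216 of 19592 kept barcodes. They were selected by unique molecular identifiers (UMIs), each of which counts 1 captured RNA molecule. A member held at least 3 UMIs of *Krt5*, *Krt14*, *Krt17*, *Krt7* and *Ly6d* together and at least 3 of *Wfdc2*, *Gpha2*, *Dapl1* and *Cbr2* together. It held at most 1 UMI of the myoepithelial genes *Cck*, *Cnn1*, *Pcp4* and *Igfbp2*, at most 1 of *Fcgbp*, *Sftpd*, *F5* and *Ccl9*, and none of *Ptprc* or *Pecam1*. Those 19 genes chose the cells, so their values are given as a description and are not tested. There were 3 libraries (1 female, 2 male), and each pooled the glands of 3 C57BL/6J mice aged 2 months, and the labels name no treatment or transgene. The glands were dissociated enzymatically at 37 °C, red blood cells were lysed and dead cells were removed on columns. The female and male libraries were prepared by different sequencing cores on different days, and the effect of sex cannot be told apart from that of either.

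The ducts of the LG carry the tear fluid made by the acini and modify it on the way to the eye surface. They are lined by a luminal layer facing the fluid, usually rich in *Krt8*, *Krt18* and *Krt19*, and in larger ducts by a basal layer holding *Krt5*, *Krt14* and the transcription factor *Trp63*. *Wfdc2* encodes a secreted protein with antiprotease-type domains, and *Gpha2* encodes one subunit of thyrostimulin, a glycoprotein hormone of the thyrotropin family.

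All values for the libraries are given in the order female library, male library 1 and male library 2. Members numbered 1009 of 8298 kept barcodes in the female library (12.2%, exact 95% interval 11.5 to 12.9), 118 of 5582 in male library 1 (2.11%, 1.75 to 2.53) and 89 of 5712 in male library 2 (1.56%, 1.25 to 1.91). The intervals cover counting error only. The libraries held 63066640, 40609390 and 44661762 UMIs in called barcodes, and kept barcodes had a median of 3302, 1891 and 1879 UMIs. Called barcodes shared between libraries numbered 12 to 18 for each pair, and no member barcode was shared. *Xist* had 4457, 0 and 0 UMIs in the members, as the sex labels require. UMIs of secreted tear-product genes were found in every cell class, and 72 such genes had a UMI over all classes and libraries together. Levels are therefore given as UMIs per 1000000 UMIs outside the tear-product genes (CPM). In the members the tear-product genes took 36.0%, 48.6% and 53.9% of all UMIs. If all of them were free RNA with the make-up of the deeper uncalled barcodes, free RNA would be 46.5%, 56.6% and 63.1% of the members' UMIs.

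The promoters of *Wfdc2*, *Gpha2*, *Dapl1* and *Tfcp2l1* are shown because all 4 genes were highest in the same cells, although only *Tfcp2l1*, a transcription factor of the CP2 family, was outside the selection rule. For *Wfdc2*, *Gpha2* and *Dapl1* this was largely fixed by selection. Every other cell class was limited to at most 1 UMI of these genes and *Cbr2* together. Each window runs from 250 bases before to 50 bases after the RefSeq gene start on build GRCm38.p6, plus strand: *Wfdc2* chr2:164562465-164562764, *Gpha2* chr19:6226151-6226450, *Dapl1* chr2:59484403-59484702 and *Tfcp2l1* chr1:118627695-118627994. Capitals mark matches to CCNG, 6 bases of any kind and CCNG again, the spacing of the CP2-family site, searched on both strands (CNGG on the other strand).
Wfdc2: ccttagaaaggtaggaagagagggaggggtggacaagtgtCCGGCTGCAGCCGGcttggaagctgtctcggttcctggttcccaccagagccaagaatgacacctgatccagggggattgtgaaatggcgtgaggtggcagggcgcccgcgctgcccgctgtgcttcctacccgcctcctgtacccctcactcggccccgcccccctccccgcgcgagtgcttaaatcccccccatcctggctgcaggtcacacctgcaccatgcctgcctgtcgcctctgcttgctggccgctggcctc
Gpha2: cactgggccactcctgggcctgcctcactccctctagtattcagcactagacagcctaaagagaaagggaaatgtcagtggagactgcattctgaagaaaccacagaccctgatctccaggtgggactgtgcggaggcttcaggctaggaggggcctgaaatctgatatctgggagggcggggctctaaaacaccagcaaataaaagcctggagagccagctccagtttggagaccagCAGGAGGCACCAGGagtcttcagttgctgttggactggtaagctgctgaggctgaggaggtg
Dapl1: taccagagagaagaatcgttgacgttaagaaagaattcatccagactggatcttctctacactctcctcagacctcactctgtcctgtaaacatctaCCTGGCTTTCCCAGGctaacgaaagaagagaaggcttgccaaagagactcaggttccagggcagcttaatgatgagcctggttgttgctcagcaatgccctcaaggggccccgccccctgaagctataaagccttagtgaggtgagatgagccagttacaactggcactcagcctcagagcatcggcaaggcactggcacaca
Tfcp2l1: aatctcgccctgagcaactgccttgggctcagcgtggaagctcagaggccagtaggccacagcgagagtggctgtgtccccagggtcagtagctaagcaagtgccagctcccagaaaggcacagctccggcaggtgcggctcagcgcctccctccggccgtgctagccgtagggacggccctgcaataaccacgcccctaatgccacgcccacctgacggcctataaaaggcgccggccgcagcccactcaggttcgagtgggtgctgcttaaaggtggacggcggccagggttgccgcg
The *Wfdc2* and *Dapl1* windows each held 2 matches that overlap at 1 place, *Gpha2* held 1 and *Tfcp2l1* held 0. The same letters occur in 29.3% of 27025 mouse promoters of this length, so a match is a description of the sequence and says nothing of binding.

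The working label of these cells was *Wfdc2* *Gpha2* luminal-type duct cells, and its markers were present in all 3 libraries. *Wfdc2* stood at 1176, 2069 and 2423 CPM in the members, and at 7.02, 17 and 26.4 CPM in *Ltf+* epithelial cells, a separate secretory epithelial population. *Gpha2* stood at 361, 576 and 493 CPM, *Dapl1*, a gene first described in differentiating epithelium, at 569, 777 and 902 CPM, and *Ly6d*, a surface protein of stratified epithelia, at 928, 1135 and 887 CPM. These are gate genes. Each other class could hold at most 1 UMI of *Wfdc2*, *Gpha2*, *Dapl1* and *Cbr2* together, so low values there follow from selection. *Tfcp2l1* was not a gate gene, and it reached 920.3, 629 and 563 CPM in the members against 1.90, 11.4 and 8.06 CPM in myoepithelial cells (MECs), 3.09, 2.79 and 0.623 CPM in acinar cells and 2.69, 1.44 and 2.09 CPM in fibroblasts. Across these classes the members were highest in every library. *Tfcp2l1* was not particular to the members, as *Wfdc2*-low duct cells, defined below, held it at 487, 446 and 434 CPM. It was also found in *Ltf+* cells, with the values given below.

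The keratins did not point one way on the word luminal in the label. *Krt8* measured 286, 306 and 352 CPM in the members and 786, 1829 and 1785 CPM in *Ltf+* epithelial cells, and *Krt18* measured 288, 402 and 465 against 1074, 2570.1 and 2392 CPM. Both were higher in *Ltf+* cells in every library. *Krt19*, also a luminal keratin, ran the other way, at 92, 34.9 and 98.6 CPM in the members and 0, 0 and 5.65 CPM in *Ltf+* cells. Among basal genes, *Krt5* (1311, 1283 and 1169 CPM) and *Krt14* (2340.4, 3562 and 4085 CPM), the keratin pair of basal layers, were abundant in the members, although both belong to the gate. Outside the gate, *Trp63* stood at 312, 201 and 183 CPM and *Col17a1*, a hemidesmosome collagen that anchors basal cells, at 423, 227 and 197 CPM. In *Ltf+* cells *Trp63* was not detected and *Col17a1* was at 0, 0 and 3.77 CPM. The cells are therefore called *Wfdc2+* duct cells here, with no layer named.

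Each member had to hold UMIs of both gates, so the finding of *Wfdc2* and *Krt14* in the same cell in 91.8%, 73.7% and 84.3% of the members was largely fixed by the selection. Of genes outside it, *Tfcp2l1* and *Trp63* were found together in 50.2%, 7.63% and 6.74% of the members. In fibroblasts *Wfdc2* alone was found in 0.338, 0.260 and 0.191% and *Trp63* in 0.620, 0 and 0% of cells. Fibroblasts could hold at most 1 UMI of either gate, so their *Wfdc2* and *Gpha2* shares were bounded by selection. Median depth was 3743, 1739 and 1377 UMIs per member and so had the same order over the libraries as the *Tfcp2l1* and *Trp63* share. When each member was thinned to 1000 UMIs (1009, 115 and 87 cells), *Trp63* was found in 22, 13.9 and 8.05% and *Gpha2*, a gate gene, in 23.7, 24.3 and 27.6% of cells. Before thinning *Gpha2* was found in 53.1, 39.8 and 29.2%. In thinned fibroblasts *Gpha2* was found in 0, 0 and 0% (median depth before thinning 3138, 1551 and 1320 UMIs). Thinned *Tfcp2l1* was found in 51.6, 27.8 and 28.7% of members and 0.116, 0 and 0% of fibroblasts.

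The share of duct cells that reached the *Wfdc2* gate moved with depth. The summed gate genes had a median of 9, 4 and 4 UMIs per member with a range of 3 to 51, 3 to 15 and 3 to 10, and the keratin gate had a median of 19, 7 and 6. Members just inside, with exactly 3 UMIs of the *Wfdc2* gate, numbered 54, 44 and 42, while 45, 54 and 48 otherwise eligible cells held 2. At the keratin gate 8, 13 and 14 members held exactly 3 UMIs and 1, 3 and 7 eligible cells held 2. Among all barcodes that passed the keratin and exclusion gates on *Krt5*, *Krt14* and *Krt17* (1084, 279 and 209 cells), 92.1%, 37.6% and 38.3% reached 3 UMIs of the *Wfdc2* gate. Kept barcodes of at least 1000 UMIs were then thinned to 1000 UMIs, and the gates were applied afresh to the thinned counts. The shares became 48.0% (exact 95% interval 44.6 to 51.5), 16% (11.1 to 21.9) and 31.1% (24.2 to 38.8). The thinned sets held 833, 194 and 167 barcodes, which need not be the cells that passed before thinning. The female library had the highest share before and after thinning. Thinning matched total UMIs only. Tear-product genes took a median of 21.1%, 48.0% and 45.6% of a member's UMIs. Depth outside these genes was therefore still greatest in the female library, and its part in the shares was not tested. Members found after thinning made up 5.65%, 0.697% and 1.15% of the thinned barcodes, so the female library still held the most. With 1 female library no test of sex was possible.

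**Figure D1:**
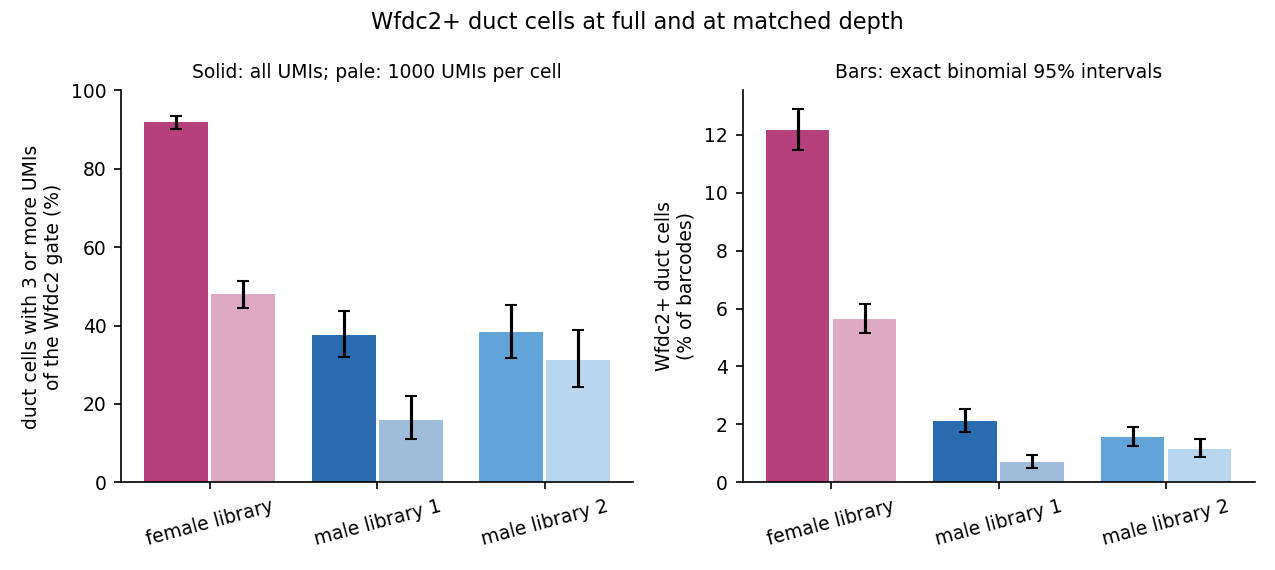
Left, percent of duct cells with 3 or more UMIs of the *Wfdc2* gate. Right, *Wfdc2+* duct cells as a percent of barcodes. Solid bars use all UMIs, pale bars barcodes thinned to 1000 UMIs and gated afresh, and error bars are exact binomial 95% intervals. The female library is highest in all 4 sets, and its left-hand bar is 92.1% with all UMIs and 48.0% after thinning.

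Of 8 basal layer genes tested, 1 differed between *Wfdc2+* and *Wfdc2*-low duct cells. The latter (44, 126 and 87 cells) held at least 3 UMIs of *Krt5*, *Krt14* and *Krt17* together and at most 1 UMI of the *Wfdc2* gate. Their comparison asks what goes with *Wfdc2* among keratin-positive duct cells. Members could also qualify on *Krt7* and *Ly6d* and had no limit on tear-product UMIs, which was under 75% for *Wfdc2*-low cells. The classes thus differ in basal keratin selection as well as in *Wfdc2*. *Krt15*, a basal keratin, stood at 146, 131 and 127 CPM in the members and 125, 196 and 239 CPM in *Wfdc2*-low cells (log2 fold change -0.34 ± 0.29 SE, adjusted p = 0.6, edgeR). *Trp63* stood at 396, 169 and 194 CPM in *Wfdc2*-low cells (log2 fold change -0.19 ± 0.22 SE, adjusted p = 0.76). Neither passed the test, and the libraries overlapped for both genes. *Itga6*, the laminin-binding integrin of hemidesmosomes, was the 1 gene that differed. It stood at 377, 209.5 and 239 CPM in the members and 611, 294 and 524 CPM in *Wfdc2*-low cells, and was lower in the members in 3 of 3 libraries (log2 fold change -0.77 ± 0.19 SE, adjusted p = 0.025), although the libraries overlapped. The list had a median log2 fold change of -0.03 beside -0.02 over all 1762 genes tested. At an unadjusted p under 0.05 the count was 1, and DESeq2 called 0. *Itga6* did not pass when any 1 library was left out (adjusted p = 0.098, 0.12 and 0.17 without each in turn).

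**Figure D2:**
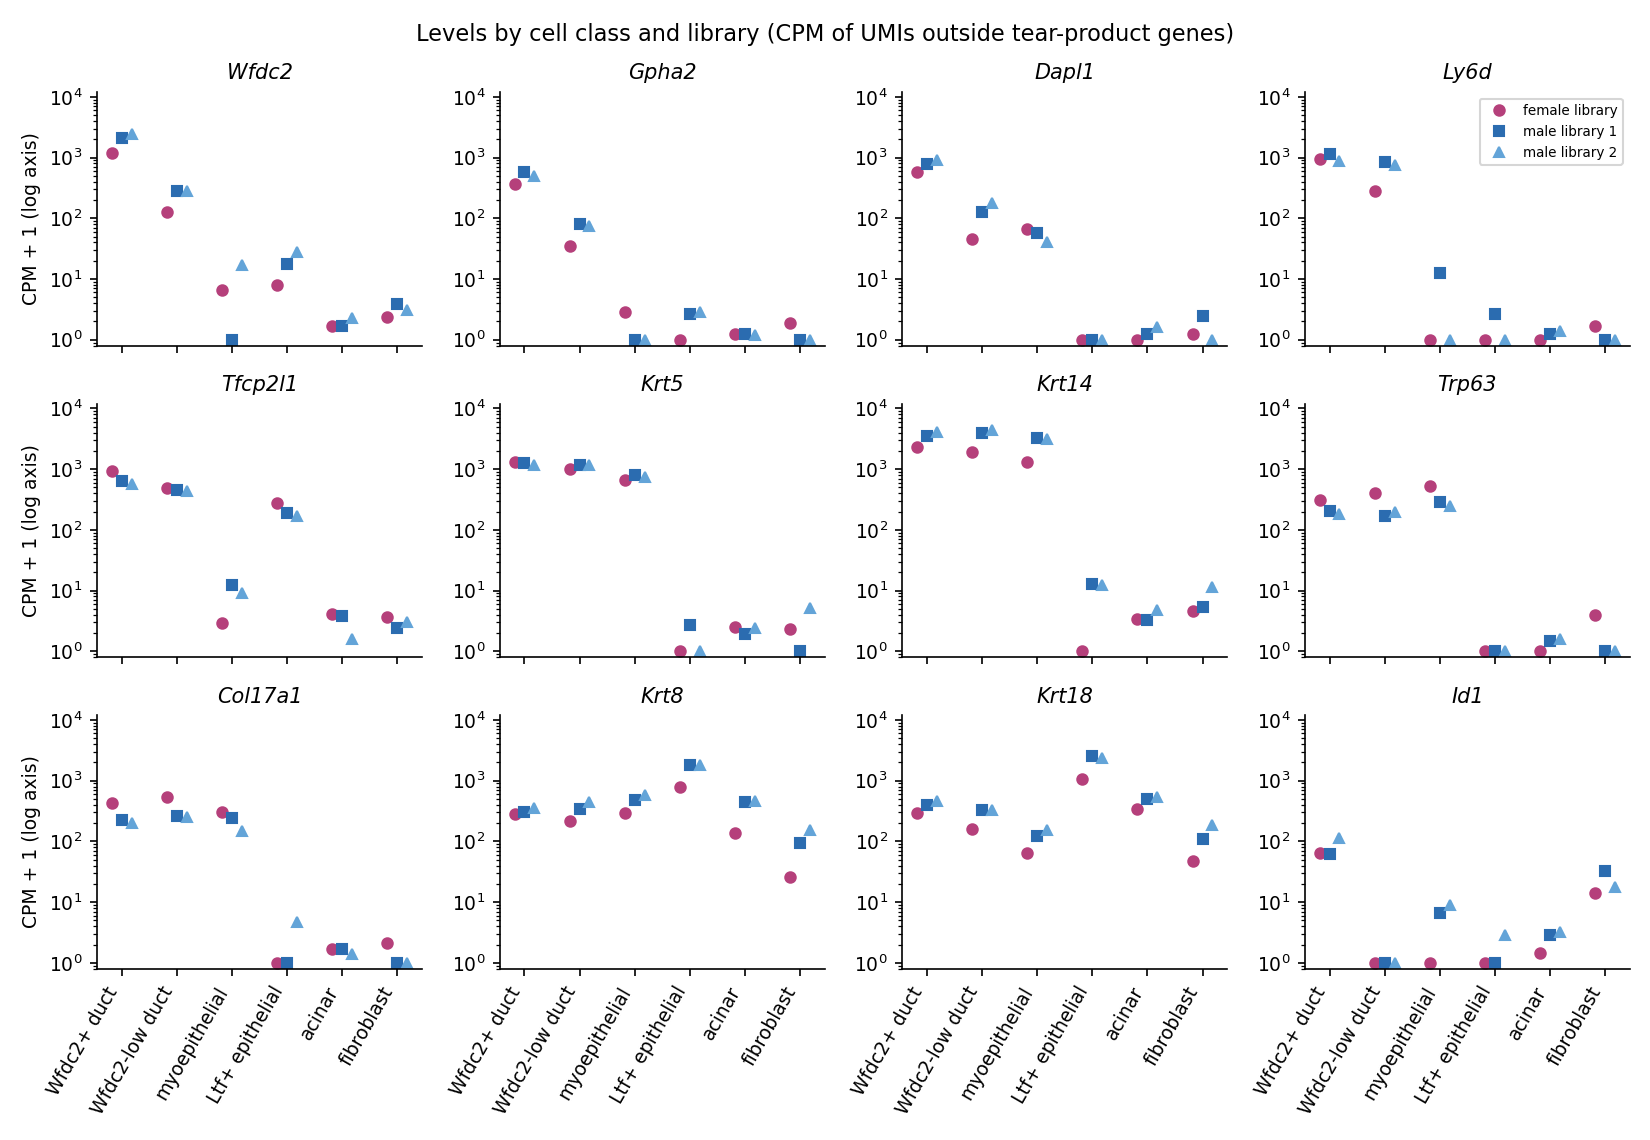
Levels of 12 genes in 6 cell classes, in CPM outside tear-product genes plus 1 on a log axis, with 1 point per library. *Wfdc2*, *Gpha2*, *Dapl1* and *Tfcp2l1* were highest in the *Wfdc2+* duct cells, *Krt8* and *Krt18* in *Ltf+* epithelial cells, and *Id1* was at 0 in *Wfdc2*-low duct cells. *Wfdc2*, *Gpha2* and *Dapl1* belong to the gate that separates the members from the other classes.

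Across all genes, few differed between the 2 kinds of duct cell. In edgeR's quasi-likelihood test on UMIs summed per library and class, with the library as a block, 12 of 1762 genes (0.681%) were higher in the members and 51 (2.89%) were lower at an adjusted p under 0.05. All 12 and 48 of the 51 moved the same way in 3 of 3 libraries. P-values here measure how far the difference between the classes varies over the 3 libraries, each a pool of 3 mice. Without male library 1, 3 genes were higher and 23 lower, without the female library 6 were higher, and without male library 2, 31 were lower. DESeq2 called 4 and 15 genes, and without the block 0 and 2 passed, with 94 genes at an unadjusted p under 0.05.

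The genes that were higher were led by *Anxa8*, an annexin that binds membranes in the presence of calcium. Its level was 182, 183 and 183 CPM in the members and 22.6, 53.5 and 74.8 CPM in *Wfdc2*-low cells (log2 fold change 1.93 ± 0.37 SE, adjusted p = 0.0039). The lowest member value was above the highest *Wfdc2*-low value. *Fxyd2*, the gamma subunit that tunes the sodium pump, stood at 266, 288 and 211 CPM against 34, 107 and 74.8 CPM (log2 fold change 1.84 ± 0.32 SE, adjusted p = 0.0018), also without overlap. *Cdo1*, cysteine dioxygenase, which commits cysteine to taurine synthesis, stood at 542, 410.3 and 296 CPM against 113, 214 and 179 CPM (log2 fold change 1.33 ± 0.26 SE, adjusted p = 0.0039). *Tfcp2l1* stood at 920.3, 629 and 563 CPM against 487, 446 and 434 CPM (log2 fold change 0.62 ± 0.17 SE, adjusted p = 0.046). The groups did not overlap for either gene. The call of *Tfcp2l1* was lost without any 1 library (adjusted p = 0.37, 0.21 and 0.076), by DESeq2 (0.85), after subtraction of free RNA (0.25), after thinning (0.35), without the highest scrublet scores (0.098) and under 5% mitochondrial UMIs (0.054), with log2 fold changes of 0.39 to 0.77 in these settings. Without the female library or male library 1, *Anxa8* (adjusted p = 0.055 and 0.073) and *Cdo1* (0.12 and 0.081) did not pass.

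Secreted and defence genes were also among those that were higher. *Wfdc18*, another secreted protein of the WFDC family, measured 16920.1, 12186 and 11763 CPM in the members and 5253, 5709 and 7344 CPM in *Wfdc2*-low cells (log2 fold change 1.13 ± 0.17 SE, adjusted p = 0.00063), with no overlap. *Crisp1*, a cysteine-rich secretory protein, measured 1078, 1458 and 1183 against 328, 740.3 and 838 CPM (log2 fold change 1.03 ± 0.17 SE, adjusted p = 0.0014). *Cyp2f2*, a cytochrome P450 best known from airway club cells, measured 1109, 611 and 606 against 272, 348 and 359 CPM (log2 fold change 1.25 ± 0.22 SE, adjusted p = 0.0015). *Wfdc18* and *Cyp2f2* are abundant in *Ltf+* cells too, at 152279, 94199 and 86227 and 4339, 3225 and 3127 CPM, whereas *Crisp1* was at 14, 1.70 and 0 CPM and *Anxa8* at 0, 0 and 0 CPM there. The 6 markers of *Ltf+* cells, with *Wfdc18* and *Cyp2f2* among them, summed to 18356, 13277 and 12946 CPM in the members and 5728, 6449 and 8107 CPM in *Wfdc2*-low cells, and the part of *Ltf+* RNA in the result was not tested. The named genes also included the small chaperone *Cryab* (log2 fold change 0.84, adjusted p = 0.011) and the calcium-binding *S100a6* (0.48, adjusted p = 0.037). Without male library 1 *Crisp1* (adjusted p = 0.1) and *Cryab* (0.32) did not pass, and the call of *S100a6* was lost without any 1 library (0.22, 0.12 and 0.14).

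Genes of MECs and fibroblasts made up the top of the lower set. *Acta2*, smooth muscle actin, measured 24, 17.5 and 28.2 CPM in the members and 657, 392 and 314 CPM in *Wfdc2*-low cells (log2 fold change -4.71 ± 0.27 SE, adjusted p = 2.3e-09). *Tagln* (log2 fold change -4.39), *Myl9* (-3.55) and *Mylk* (-1.65), all of the contractile apparatus, fell with it, as did the matrix genes *Dcn* (-2.15) and *Sparc* (-1.71), with adjusted p of 0.0014 or less. The whole myoepithelial list (6 genes, 1 of them at 0 in both kinds of duct cell) summed to 275, 367 and 211 CPM in the members, 2038, 990.1 and 838 CPM in *Wfdc2*-low cells and 16159, 18856 and 18908 CPM in MECs. The fibroblast list (7 genes) summed to 619.6, 358 and 14.1 CPM in the members, 3169.6, 794 and 105 CPM in *Wfdc2*-low cells and 32707, 41327 and 30618 CPM in fibroblasts. *Igfbp5*, a binding protein of insulin-like growth factors (-2.24), the mitochondrial carrier *Slc25a25* (-1.48), the transcription factor *Tcf4* (-1.43) and *Thbs1*, thrombospondin 1 (-1.36), were lower as well. Without the female library *Tagln* stood at -1.89, *Dcn* at -1.41 and *Acta2* at -4.03, still past the test, while *Mylk*, *Igfbp5* and *Tcf4* did not reach the filter. The call of *Slc25a25* was lost without any 1 library (adjusted p = 0.058, 0.11 and 0.16). The *Wfdc2*-low class thus held more RNA of the myoepithelial and fibroblast lists in every library, and the source of that RNA was not tested. For fibroblast genes male library 2 was near the floor, with 1 *Dcn* UMI in the members and 7 in *Wfdc2*-low cells. The comparison was therefore repeated, after seeing the data, without cells holding any UMI of MEC or fibroblast genes. It called 6 genes higher and 39 lower. *Anxa8* (1.36, adjusted p = 0.039), *Fxyd2* (1.51, 0.0084), *Wfdc18* (0.71, 0.019) and *Cyp2f2* (0.77, 0.047) kept their call, while *Cdo1* (0.85, adjusted p = 0.092), *Crisp1* (0.67, 0.051), *Cryab* (0.60, 0.22), *Tfcp2l1* (0.38, 0.51) and *S100a6* (0.42, 0.27) lost it and stayed above 0.

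**Figure D3:**
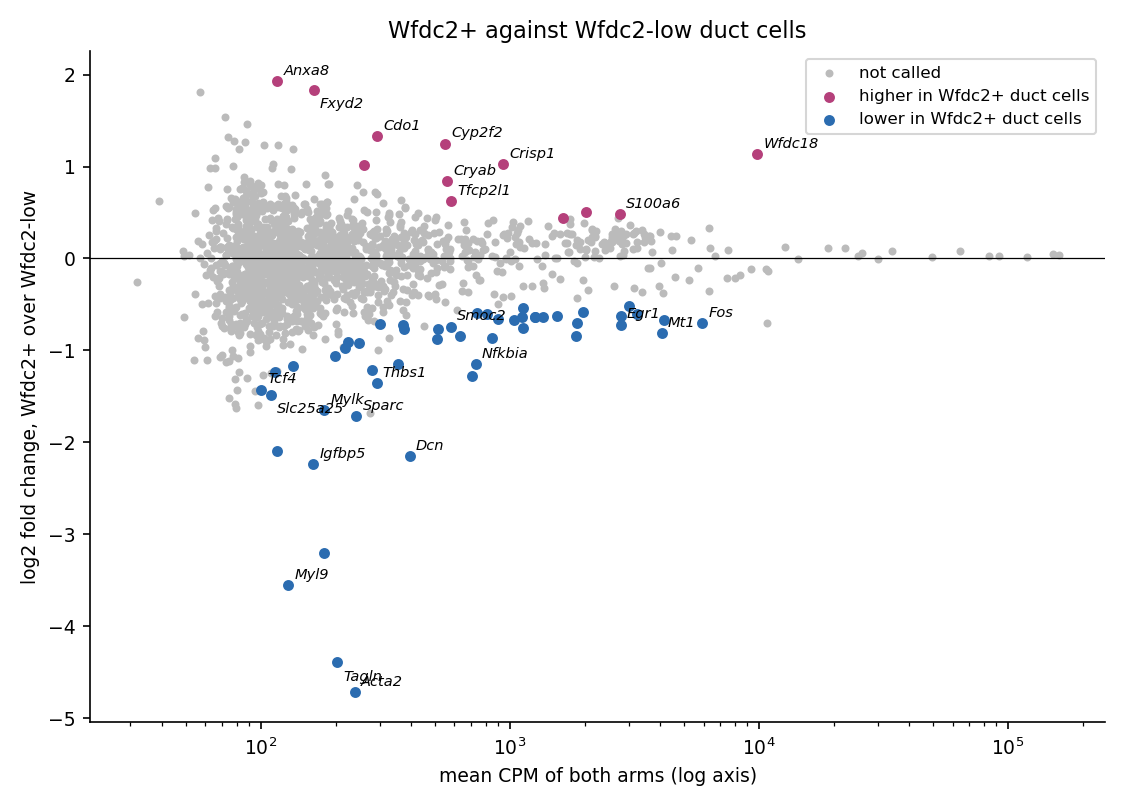
Log2 fold change between *Wfdc2+* and *Wfdc2*-low duct cells against mean level in CPM (log axis) for 1762 genes. The 12 higher genes are led by *Anxa8* and *Fxyd2* and the 51 lower genes by *Acta2* and *Tagln*.

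*Id1*, an inhibitor of basic helix-loop-helix factors and a target of BMP signalling, was detected in one kind of duct cell and not in the other, although its low counts kept it out of the filtered test. It had 206, 7 and 8 UMIs in the members (64.3, 61.1 and 113 CPM) and 0 UMIs in 267305 non-tear UMIs of *Wfdc2*-low cells. It was at least 7.07-fold higher in the members, against a floor of 3 counts over the *Wfdc2*-low cells. MECs stood at 0, 5.69 and 8.06 CPM and fibroblasts at 13.2, 31.6 and 16.7 CPM. Without the filter on low counts edgeR gave an adjusted p of 5.0e-05. After thinning, *Id1* was found in 4.46, 2.61 and 4.60% of members and 1.05, 1.72 and 1.29% of fibroblasts, so most thinned members held no *Id1* UMI.

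Of the other lists, few genes passed the test in this comparison, in which 0.681% of all 1762 genes were higher and 2.89% lower. Mucosal defence genes gave 2 higher (*Wfdc18* and *Crisp1*) and 1 lower of 10 tested, the lower one being *Lcn2*, which binds bacterial siderophores (-0.59, adjusted p = 0.032). Of 10 S100 and annexin genes 2 were higher (*Anxa8* and *S100a6*), and of 6 MHC presentation genes 2 were lower, *H2-K1* (-0.54) and *B2m* (-0.61), which form the class I complex. Among transcription factors 1 of 21 tested was higher (*Tfcp2l1*) and 0 lower, and the eye and gland factor *Pax6* stood at 465, 332 and 296 CPM against 385, 321 and 254 CPM (log2 fold change 0.16 ± 0.19 SE, adjusted p = 0.76). Of 8 ion and water transport genes 1 was higher (*Fxyd2*). Of 23 xenobiotic and redox enzymes 2 were higher, *Cyp2f2* and *Cdo1* (median 0.32, 18 above 0), and of 38 oxidative phosphorylation genes 0 passed by either tool, with 7 at an unadjusted p under 0.05 (median 0.25, 35 above 0). Junction genes (10 tested) and heat shock chaperones (11 tested) gave 0 calls by edgeR and by DESeq2, with 2 genes in each list at an unadjusted p under 0.05. For growth factor genes 0 of 7 were higher and 2 lower, *Igfbp5* and the receptor *Fgfr1*, the latter at 81.4, 61.1 and 56.3 CPM against 181, 125 and 179 CPM (log2 fold change -1.24 ± 0.32 SE, adjusted p = 0.033). *Smoc2*, a matricellular gene that marks stem cells in other epithelia, was at 479.5, 419 and 451 CPM against 894, 633 and 613 CPM (log2 fold change -0.74 ± 0.16 SE, adjusted p = 0.013). The calls of *Lcn2* (adjusted p = 0.12, 0.12 and 0.22), *H2-K1* (0.29, 0.064 and 0.14) and *Fgfr1* (0.21, 0.14 and 0.13) were lost without any 1 library, and those of *B2m* (0.34 and 0.22) and *Smoc2* (0.15 and 0.13) without the female library or male library 1.

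Immediate early genes, which are switched on within minutes of stimulation and also during tissue dissociation, supplied 14 of the 51 lower genes. Of 26 tested 0 were higher and 14 lower, with a median log2 fold change of -0.61, and 24 lay below 0. *Nfkbia*, the inhibitor that NF-kappa-B induces, measured 455, 410.3 and 521 CPM in the members and 996, 909.8 and 1092 CPM in *Wfdc2*-low cells (log2 fold change -1.15 ± 0.15 SE, adjusted p = 7.2e-05). *Egr1* measured 2739, 1859 and 1775 against 4562, 2596 and 3231 CPM (log2 fold change -0.72 ± 0.13 SE, adjusted p = 0.0018). *Fos*, a subunit of AP-1, measured 5334, 4365 and 3958 against 8117, 6815 and 6895 CPM (log2 fold change -0.71 ± 0.13 SE, adjusted p = 0.0036). Of these 3 genes the libraries overlapped for *Egr1*. *Socs3*, a feedback inhibitor of cytokine signalling, had a log2 fold change of -0.87 and the stress factor *Atf3* one of -0.61, both past the test. Both metallothioneins, zinc-binding stress proteins, were lower, *Mt1* at 1671, 3352 and 3339 against 1834, 7760.2 and 6507 CPM (log2 fold change -0.81 ± 0.17 SE, adjusted p = 0.0078) and *Mt2* with a log2 fold change of -0.87. The libraries overlapped for *Mt1*. Without male library 2 *Egr1* (adjusted p = 0.11), *Fos* (0.18), *Atf3* (0.24) and *Mt1* (0.18) did not pass, and without male library 1 *Socs3* (0.1), *Mt1* (0.16) and *Mt2* (0.12) did not.

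The immediate early list was not low in the members as such. It summed to 40513, 33425 and 34245 CPM in the members, 55242, 47756 and 52292 CPM in *Wfdc2*-low cells and 3953, 9159 and 7809 CPM in *Ltf+* cells. Within libraries, with the metallothioneins added, the median log2 ratio was -0.45, -0.59 and -0.68, and 24, 26 and 25 of 28 genes were below 0. The share of cells with 5% or more mitochondrial UMIs was 9.71%, 2.54% and 1.12% of members and 36.4%, 3.17% and 3.45% of *Wfdc2*-low cells, and 13 of 26 list genes were lower when only cells under 5% were kept. The count was 14 without cells holding MEC or fibroblast UMIs, 8 without male library 1, 5 without male library 2, 4 by DESeq2, 2 after subtraction of free RNA and 0 without the library block. The median stayed between -0.46 and -0.67 in these settings and the others tried.

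**Figure D4:**
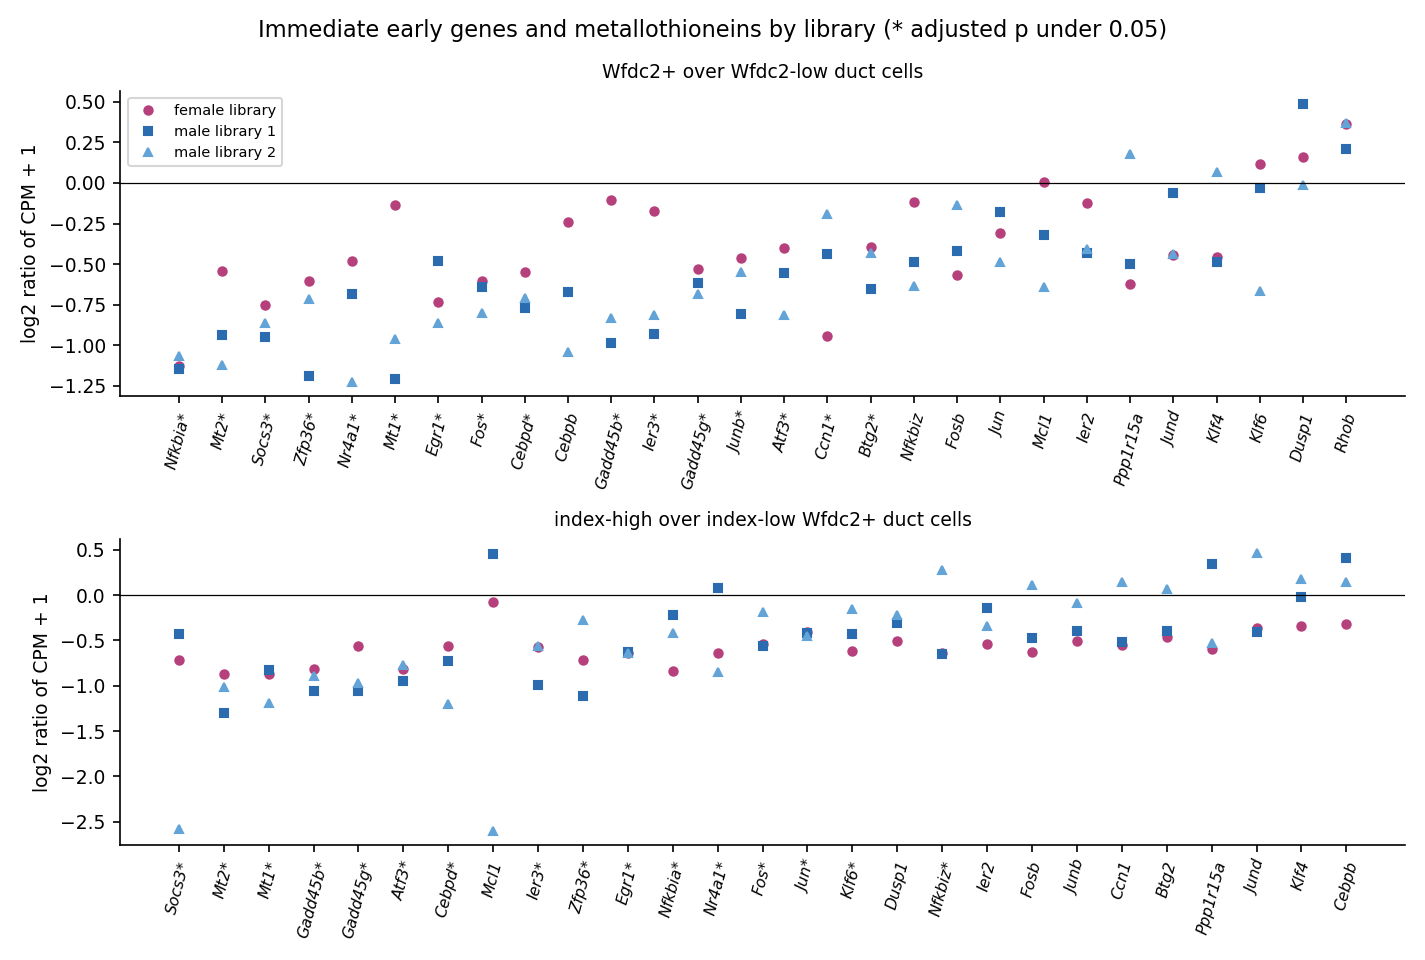
Log2 ratio of CPM plus 1 for immediate early genes and metallothioneins, with 1 point per gene and library, for *Wfdc2+* against *Wfdc2*-low duct cells and for members with high against low *Wfdc2* index. Library medians lie between -0.42 and -0.68, and asterisks mark genes with an adjusted p under 0.05.

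Immediate early genes also varied among the members themselves. Members were split at each library's median of the *Wfdc2* index, the log2 ratio of *Wfdc2* gate UMIs to *Krt5*, *Krt14* and *Krt17* UMIs with 1 added to each, into 502 and 507, 57 and 61, and 41 and 48 cells. Of 954 genes tested 11 (1.15%) were higher and 33 (3.46%) lower in index-high members by edgeR. Only 2 of the 11 and 28 of the 33 moved the same way in 3 of 3 libraries. The libraries were free of overlap for 0 of the 11 and 20 of the 33. Without the female library 1 was higher and 13 lower, without male library 1, 19 were lower, and without male library 2, 17 were higher. DESeq2 called 0 and 7, and without the block 0 and 0 passed. At an unadjusted p under 0.05 there were 136 genes with the block and 22 without it. The gate genes are not tested. The immediate early list had 14 of 25 genes lower and 0 higher, all 25 below 0, with a median log2 fold change of -0.47 beside 0.03 over all genes. It summed to 32803, 26917 and 29474 CPM in index-high and 48033, 38546 and 37695 CPM in index-low members.

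Named genes of this split were mostly stress and cytokine genes. *Thbs1* measured 49.9, 79.3 and 134 CPM in index-high and 163, 218 and 267 CPM in index-low members (log2 fold change -1.56 ± 0.30 SE, adjusted p = 0.0042). *Cxcl1*, a neutrophil chemokine, measured 122, 198 and 302 against 314, 328 and 752 CPM (log2 fold change -1.28 ± 0.11 SE, adjusted p = 5.6e-06). *Mt1* (-0.89), *Mt2* (-0.90), *Irf1* (-0.88), *Gadd45b* (-0.84), *Atf3* (-0.81), *Nfkbia* (-0.72), *Socs3* (-0.73) and *Ifrd1* (-1.20) fell in the same test, with adjusted p of 0.026 or less. In the higher direction the rule named *Sec11c*, a signal peptidase subunit (0.50), and the interferon-induced *Ifi27l2a* (0.48). Both calls were lost without any 1 library (adjusted p = 0.96, 0.7 and 0.088 and 0.46, 0.48 and 0.27). Without the female library *Thbs1* (adjusted p = 0.73), *Cxcl1* (0.17), *Nfkbia* (0.99), *Socs3* (0.16) and *Ifrd1* (0.11) did not pass and *Irf1* did not reach the filter. By contrast, 0 of 7 basal layer genes and 0 of 18 transcription factors passed by edgeR or DESeq2 (0 and 4 at an unadjusted p under 0.05), and *Tfcp2l1* had log2 fold change 0.12 ± 0.15 SE, adjusted p = 0.98. Tear-product genes took 39.3%, 48.7% and 52.7% of UMIs in index-high members and 32.3%, 48.5% and 54.8% in index-low members, and 4 of 31 tested were higher. After subtraction of free RNA 0 immediate early genes passed, with the median at -0.43, and without the female library or male library 1 the count was 5.

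Against *Ltf+* epithelial cells (28, 291 and 271 cells, at least 3 UMIs of *Fcgbp*, *Sftpd*, *F5* and *Ccl9*), the members differed in a large part of the transcriptome. By edgeR, 724 of 6074 genes (11.9%) were higher and 726 (12%) lower in the members, 691 and 612 of them the same way in 3 of 3 libraries. The list counts against *Ltf+* cells given below are to be read beside these shares. Without male library 1 the counts were 424 and 403. Scaling by total UMIs in place of TMM, edgeR's trimmed-mean scaling, moved the median log2 fold change of all genes from 0.04 to 0.95 and the calls to 2514 higher and 229 lower, so changes are given relative to TMM.

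Basal layer and hemidesmosome genes rose together: 11 of 11 tested were higher, with a median log2 fold change of 6.06, or 4.55 with genes at 0 UMIs in *Ltf+* cells set at their lower bound. Without the female library 8 of 8 tested were higher with a median of 4.31, without male library 2 the median was 8.36, after thinning 7 of 7 were higher with a median of 2.82, and after subtraction of free RNA 5 of 11 kept a call with a median of 5.75. *Trp63* had 0 UMIs in *Ltf+* cells and was at least 97.6-fold higher in the members, and *Krt15* at least 56.6-fold. *Cdh3*, P-cadherin, was at least 23.3-fold higher. *Itgb4*, the integrin chain of hemidesmosomes, measured 313, 244 and 225 against 35.1, 44.1 and 66 CPM (log2 fold change 2.00 ± 0.27 SE, adjusted p = 2.7e-07), and the laminin chain *Lamb3* measured 258, 166 and 211 against 7.02, 18.7 and 20.7 CPM (log2 fold change 3.15 ± 0.34 SE, adjusted p = 1.5e-09). In none of these genes did the libraries overlap. Among simple-epithelium keratins *Krt8* (-2.46), *Krt18* (-2.67) and *Krt23* (-4.37) fell, with adjusted p of 2.5e-11 or less. *Krt19* was higher in the members, on 3 UMIs in *Ltf+* cells (ratio 31.6, exact Poisson 95% interval 10.8 to 153, adjusted p = 8.8e-06). *Krt23* stood at -8.49 without the female library, where *Krt19* did not reach the filter.

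Transcription factors gave 10 higher and 2 lower of 25 tested. *Tfcp2l1* was also found in *Ltf+* cells, at 281, 185 and 166 CPM, and was higher in the members (log2 fold change 1.36 ± 0.20 SE, adjusted p = 1.3e-06). *Sox4*, a factor of progenitor and epithelial programmes, measured 309, 332 and 324 against 28.1, 25.4 and 26.4 CPM (log2 fold change 3.26 ± 0.29 SE, adjusted p = 6.2e-12). *Id3* (2.37), *Klf4* (2.82), *Klf5* (1.51) and *Osr2* (1.53) also rose, while *Elf5*, a factor of secretory epithelium in the mammary gland, fell from 91.3, 69.6 and 90.5 CPM in *Ltf+* cells to 6.24, 17.5 and 0 CPM (log2 fold change -4.07 ± 0.55 SE, adjusted p = 2e-07), as did *Ehf* (-0.91). *Elf5* stood at -3.08 without the female library, and without male library 1 *Ehf* did not pass (adjusted p = 0.1). *Id1* was higher in the members on 1 UMI in *Ltf+* cells (ratio 100.2, exact Poisson 95% interval 18 to 3957, adjusted p = 4.6e-07). *Pax6* (log2 fold change 0.10 ± 0.21 SE, adjusted p = 0.8) and *Sox9* (log2 fold change 0.25 ± 0.22 SE, adjusted p = 0.45) did not pass. Both were present in the members, at 465, 332 and 296 and 494, 402 and 254 CPM.

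Ion and water transport genes split, with 6 higher and 7 lower of 15 tested. Genes of fluid secretion were at low levels in the members. *Aqp5*, the apical water channel of acini, measured 46.5, 61.1 and 141 CPM against 583, 728 and 716 CPM (log2 fold change -3.73 ± 0.26 SE, adjusted p = 8.6e-15), and *Slc12a2*, the basolateral chloride loader NKCC1, 28.1, 8.73 and 0 against 204, 219 and 241 CPM (log2 fold change -3.68 ± 0.33 SE, adjusted p = 1.1e-11). The calcium-activated channels *Ano1* (-4.49) and *Kcnn4* (-5.12) fell as well. On the other side stood *Aqp3*, an aquaporin that also carries glycerol, at 163, 87.3 and 70.4 CPM against 0 UMIs in *Ltf+* cells and at least 44.9-fold higher. *Fxyd2* (2.33) rose, as did the carbonic anhydrase *Car12* (0.81). *Slc12a2* stood at -5.56 without the female library, and *Car12* did not pass without the female library or male library 2 (adjusted p = 0.061 and 0.21). The epithelial sodium channel subunits *Scnn1a* (17.5, 8.73 and 0 CPM), *Scnn1b* and *Scnn1g* and the chloride channel *Cftr* (1.56, 0 and 0 CPM) were close to the detection limit and were not tested.

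Junction genes also differed by member, with 4 higher and 6 lower of 21 tested. *Cldn4*, a sealing claudin, measured 160.0, 131 and 155 CPM against 0, 18.7 and 9.42 CPM (log2 fold change 3.23 ± 0.42 SE, adjusted p = 6.9e-08) and *Nectin1*, an adhesion protein, 115, 122 and 113 against 7.02, 1.70 and 3.77 CPM (log2 fold change 4.77 ± 0.57 SE, adjusted p = 1.2e-08). The desmosome gene *Dsp* rose (0.93). In the other direction *Cldn10*, which forms ion pores, measured 80.5, 148 and 98.6 against 463, 702 and 664 CPM (log2 fold change -2.88 ± 0.23 SE, adjusted p = 4.6e-13), and *Cldn3* (-2.97) and *Cldn7* (-1.54) fell too. *Epcam* was lower in the members (-1.12) but well expressed, at 638, 768 and 606 CPM. Without male library 1 *Cldn4* stood at 4.12 and *Nectin1* at 4.17. *Cdh1*, E-cadherin, did not pass (log2 fold change 0.09 ± 0.29 SE, adjusted p = 0.87).

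Defence genes divided between the populations, with 5 higher and 9 lower of 16 tested. *Ltf*, lactoferrin, which sequesters iron, measured 25, 52.4 and 84.5 CPM in the members and 7035, 9905 and 11694 CPM in *Ltf+* cells (log2 fold change -8.24 ± 0.28 SE, adjusted p = 2e-24), and the scavenger protein *Dmbt1* (-8.22) and the peptidoglycan-binding *Pglyrp1* (-6.26) fell with it. *Defb1*, a beta-defensin, had 0 UMIs in *Ltf+* cells and stood at 139, 131 and 28.2 CPM in the members, at least 41.8-fold higher. *Lcn2* was higher (log2 fold change 0.68 ± 0.20 SE, adjusted p = 0.012), a call lost without male library 1 or male library 2 (adjusted p = 0.23 and 0.12). *Ltf* stood at -7.62 and *Pglyrp1* at -5.36 without the female library. *Crisp1* (ratio 522, exact Poisson 95% interval 178 to 2529, adjusted p = 8e-20) and the serpin *Serpinb5* (ratio 56.4, exact Poisson 95% interval 19.3 to 273, adjusted p = 4.5e-10) were also higher, each on 3 UMIs in *Ltf+* cells. *Tac1*, the substance P precursor, had 0 UMIs in the members and was at least 73.9-fold lower. The acinar markers were lower in 8 of 8 tested and the tear-product genes in 33 of 39. Tear-product shares were 52.4%, 64.0% and 72.0% in *Ltf+* cells beside 36.0%, 48.6% and 53.9% in the members. *Ltf+* cells had no limit on tear-product UMIs, and 2, 19 and 44 of them held 75% or more, as acinar cells had to. The *Ltf+* cells under 75% held 205465 of 299345, 906488 of 1636773 and 652637 of 1891543 UMIs. The parts of these cells and of free RNA in these lists were not tested.

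Several ligands and receptors distinguished the members. Wnt pathway genes gave 9 higher and 0 lower of 14 tested, with a median of 1.75. *Sfrp1*, a secreted Wnt antagonist, measured 361, 323 and 380.3 against 7.02, 1.70 and 0 CPM (ratio 224, exact Poisson 95% interval 62 to 1848, adjusted p = 1.1e-15) and *Smoc2* 479.5, 419 and 451 against 14, 0 and 0 CPM (ratio 284, exact Poisson 95% interval 78.6 to 2344, adjusted p = 8.6e-16), each on 2 UMIs in *Ltf+* cells. The ligand *Wnt10a* was at least 30.2-fold higher, and *Wnt4* (1.31) and *Wnt5b* (2.55) rose. The Notch ligands *Jag2* and *Dll1* had 0 UMIs in *Ltf+* cells and were at least 44.7-fold and 22.7-fold higher, the 2 calls among 6 Notch genes tested. Growth factor genes gave 9 higher and 1 lower of 20, among them *Pdgfa* (2.36), *Egfr* (2.07) and *Fgfr2* (2.81).

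The stem cell factor ligand and its receptor lay on opposite sides. *Kitl* measured 152, 122 and 127 CPM in the members and 7.02, 10.2 and 1.88 CPM in *Ltf+* cells (log2 fold change 3.93 ± 0.47 SE, adjusted p = 1.5e-08). *Kit* measured 24.6, 17.5 and 0 CPM in the members against 63.2, 126 and 92.4 CPM (log2 fold change -2.37 ± 0.40 SE, adjusted p = 1.3e-05). A *Kit* UMI was found in 71, 2 and 0 members (7.04, 1.69 and 0%), in 21.4, 21.6 and 16.2% of *Ltf+* cells and in 0.169, 0.260 and 0.191% of fibroblasts, at median depths of 3743, 1739 and 1377, 7507, 2550 and 2215, and 3138, 1551 and 1320 UMIs. After thinning the shares were 1.59, 0 and 0% of members and 3.57, 6.69 and 6.87% of *Ltf+* cells. *Ly6a*, the Sca-1 antigen, was higher in the members, at 414, 498 and 648 against 28.1, 6.79 and 17 CPM (log2 fold change 4.91 ± 0.32 SE, adjusted p = 1.6e-15), and *Cd24a* was lower (-2.85). *Kit* stood at -3.61 without the female library, and without male library 1 *Kitl* stood at 4.95.

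The partner genes of *Gpha2* were looked up in the same cells. *Gphb5*, the beta subunit of thyrostimulin, and its receptor *Tshr* had 0 UMIs in the members of all libraries, and so had *Cga* and *Tshb*, the pituitary subunits. These zeros cover 3205360, 114556 and 70988 non-tear UMIs.

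Stress genes were higher in the members than in *Ltf+* cells. Immediate early genes were higher in 25 of 27 tested and lower in 0 (median 2.23), both metallothioneins were higher (*Mt2* 5.56), and 4 of 13 heat shock chaperones were higher, among them *Hspb1* at 897, 1606 and 1057 against 28.1, 18.7 and 20.7 CPM (log2 fold change 5.52 ± 0.28 SE, adjusted p = 6.4e-19). After subtraction of free RNA 7 immediate early genes kept a call, while all 27 lay above 0 with a median of 4.08. Cells with 5% or more mitochondrial UMIs made up 9.71%, 2.54% and 1.12% of the members and 14.3%, 49.8% and 45.4% of *Ltf+* cells, and 25 of 27 immediate early genes were also higher with only cells under 5% kept. Named genes of this comparison with no UMI in *Ltf+* cells also included *F3*, tissue factor, which starts coagulation (at least 125-fold), the p53 target *Phlda3* (109.8-fold), *Anxa8* (76.9-fold), *Slit2* (48.9-fold), a guidance ligand, *Fbln1*, a matrix glycoprotein (47.4-fold), *Ang*, a secreted ribonuclease (41.4-fold), the sulfotransferase *Sult5a1* (64.3-fold) and the anthrax toxin receptor *Antxr1* (40.8-fold). In the lower direction they included the cytochrome P450 *Cyp2a5* (log2 fold change -6.18), the antiprotease-type *A2ml1* (-5.23), *Ppp1r1b* (-5.08) and *Ppp1r9a* (-4.96), regulators of protein phosphatase 1, and the folate receptor *Folr1* (-4.74). *A2ml1* stood at -2.76 and *Ppp1r1b* at -3.74 without the female library, where *Ppp1r9a* did not reach the filter.

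Lists of presentation, cytokines and metabolism gave further calls against *Ltf+* cells. The MHC class II genes *H2-Aa* (-4.51), *H2-Ab1* (-4.25), *H2-Eb1* (-3.68) and *Cd74* (-2.59) were the 4 lower of 9 MHC presentation genes, with 0 higher. Their size depended on the female library, without which *H2-Aa* stood at -1.51 and *H2-Ab1* at -1.36, both past the test, while *H2-Eb1* (-0.20, adjusted p = 0.72) and *Cd74* (-0.17, adjusted p = 0.67) did not pass. The 7 leukocyte markers summed to 24.3, 52.4 and 296 CPM in the members and 386, 244 and 143 CPM in *Ltf+* cells, so male library 2 ran against the other libraries, and the part of leukocyte RNA in the class II result was not tested. Chemokines and cytokines gave 6 higher and 5 lower of 15, with *Cxcl1* (2.37) and *Cxcl5* (2.74) higher and *Cxcl17* (-2.47) and *Ccl28* (-2.51) lower, and *Cxcl1* stood at 3.66 without male library 1 and 1.68 without male library 2. S100 and annexin genes gave 7 higher and 1 lower of 14, and xenobiotic and redox enzymes 9 higher and 12 lower of 31. Of 38 nuclear oxidative phosphorylation genes 0 were higher and 6 lower, with a median of -0.24, where 12% of all 6074 genes were lower. DESeq2 called 1 of the 38.

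**Figure D5:**
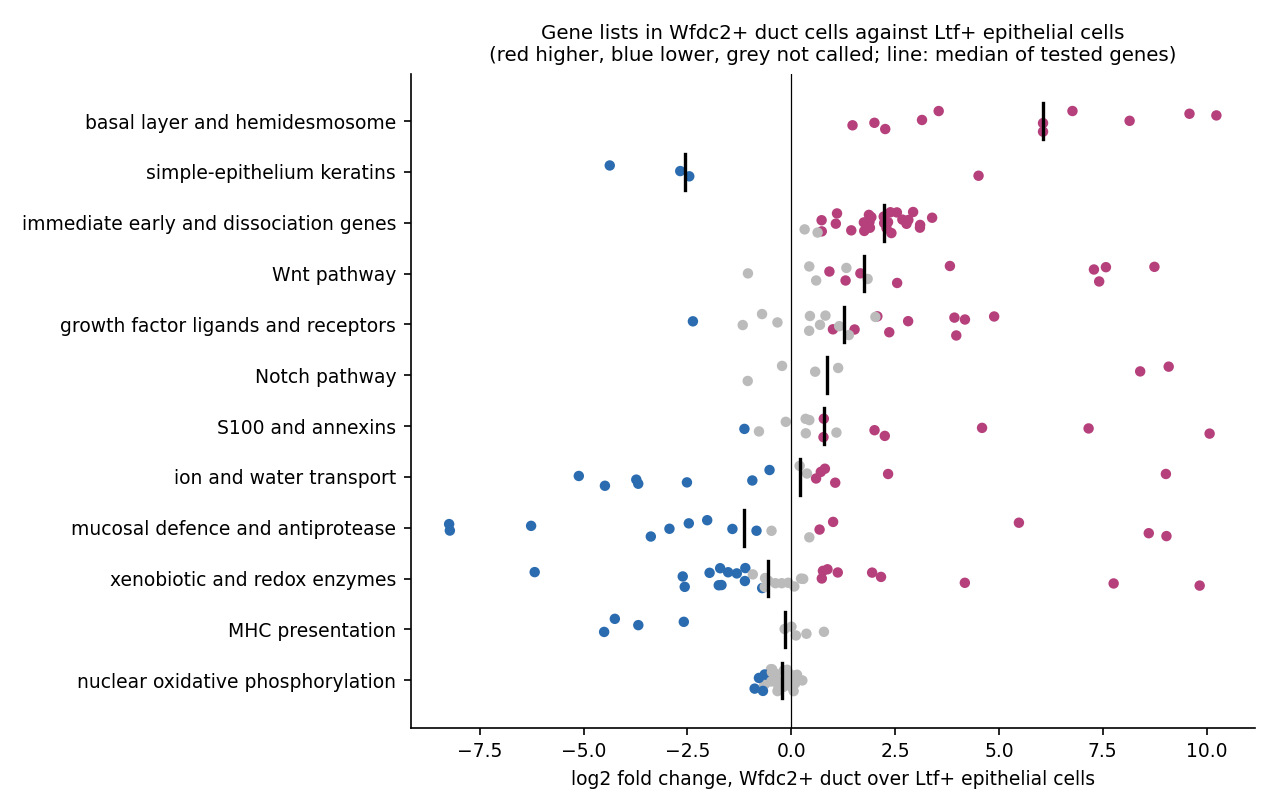
Log2 fold change between *Wfdc2+* duct cells and *Ltf+* epithelial cells for the tested genes of each list, with 1 point per gene, coloured by call, and a line at the list's median. Basal layer genes are all to the right of 0, with a median of 6.06, and the simple-epithelium keratins have 3 of 4 genes to the left.

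Between libraries, the members differed at least 4-fold from both male libraries in 7 of 4204 genes, 5 higher (0.119%) and 2 lower (0.0476%) in the female library. There is 1 female library, so no test was made. Besides *Xist*, the higher genes were *Amy1*, an amylase (1099, 0 and 0 CPM), the lipase-related *Pnliprp1* (387, 0 and 0 CPM), the chitinase *Chia1* (191, 0 and 0 CPM) and *Tnks2*, a tankyrase (79.6, 8.73 and 14.1 CPM), which rested on 1 UMI in each male library. The lower genes were *Wfdc12* (128, 6172 and 5649 CPM) and *Lipo1* (131, 1048 and 1141 CPM). Fibroblasts of the same libraries held *Wfdc12* at 121, 7067 and 8403 CPM and *Amy1* at 1013, 51.7 and 43.8 CPM, so these genes differed between the libraries in that cell type as well.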

How the data were processed

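Droplet 3′ single-cell RNA sequencing of 3 LG libraries was analysed. The files hold deposited UMI counts for each gene in each barcode, which the authors made with Cell Ranger 6.1.2 on build mm10, per the submitters' processing notes. The header of the full barcode set names Cell Ranger 4 and the annotation release is not given in the sources used here. The authors' DecontX correction and doublet removal came after these counts and are not in them. The files' 32285 gene IDs were used with their own symbols, and 32158 matched the name table.

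Kept barcodes held over 500 UMIs and over 200 genes, with under 15% mitochondrial UMIs. Doublets were left in, and as an alternative the cells with the highest scrublet scores (scanpy 1.11.5) were removed at 0.8% per 1000 barcodes. *Wfdc2*-low duct cells held at least 3 UMIs of *Krt5*, *Krt14* and *Krt17* together and under 75% tear-product UMIs. Fibroblasts held at least 5 UMIs of *Col1a1*, *Col3a1* and *Dcn* and at most 1 of the keratin gate. MECs held at least 3 UMIs of the myoepithelial genes and at least 3 of *Krt5*, *Krt14* and *Krt17*. Acinar cells held at least 75% tear-product UMIs. Every class other than the members held at most 1 UMI of the *Wfdc2* gate. UMIs were summed per library and class and tested with edgeR 4.0.16 (R 4.3.3; low-count filter, TMM, quasi-likelihood F-test, library as a block) over all filtered genes, with Benjamini-Hochberg adjustment. The block is by source, since both classes come from 1 pool of mice. The deviations of the classes from their means correlated within a library at 0.14 to 0.89. DESeq2 1.42.0 was an alternative. The other steps ran in Python 3.11.15, and the edgeR test was tried on simulated counts. Free RNA was estimated from barcodes of 10 to 100 UMIs.

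Members and lists were chosen with earlier results of these data known. Some items are not reported here. Listed genes may be named, and for each comparison the 10 largest changes per direction with an adjusted p under 0.05, the same sign in 3 of 3 libraries and at least 50 UMIs, excluding gate, tear-product, mitochondrial, ribosomal protein, hemoglobin and sex-linked genes and gene models. Between libraries the rule took up to 8 genes per direction with at least 100 UMIs.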

Additional observations from a re-analysis of the deposited data

Results flagged for a closer look

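*Wfdc12*, a secreted WFDC protein, moved in opposite directions between the libraries when the members were compared with *Ltf+* epithelial cells, with a log2 ratio of 1.38 in the female library and of -0.79 and -0.94 in male library 1 and male library 2. *Atp5j*, a subunit of ATP synthase, was listed by the sign of its ratios alone, with a log2 ratio of 0.0025 in the female library, close to 0, and of -0.33 and -0.47 in the male libraries. The differences between libraries were not tested, as there is 1 female library.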

How the results depend on the processing

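Numbers of higher and lower genes are given for the comparison with *Wfdc2*-low duct cells (12 and 51), with *Ltf+* epithelial cells (724 and 726) and between index-high and index-low members (11 and 33). DESeq2 gave 4 and 15, 390 and 342, and 0 and 7. No filter on low counts gave 27 lower against *Wfdc2*-low cells. Total UMIs in place of TMM gave 2514 and 229 against *Ltf+* cells and 4 higher by index. Without the library as a block, which pairs the classes of one library, 0 and 2 genes passed against *Wfdc2*-low cells, 854 and 787 against *Ltf+* cells, and 0 and 0 by index. Free RNA subtraction left 2 and 11, 85 and 64, and 0 and 0. Removing the highest scrublet scores gave 20 higher against *Wfdc2*-low cells and 19 higher by index. Cells above 2000 UMIs gave 3 and 15, 239 and 302, and 3 and 10, with member shares of 14.7%, 1.21% and 0.399%. Thinning to 1000 UMIs gave 260 and 184 against *Ltf+* cells. Keeping cells under 75% tear-product UMIs gave 30 higher against *Wfdc2*-low cells, 472 lower against *Ltf+* cells, 27 and 60 by index, and shares of 2.66% and 2.27% in the male libraries. Keeping cells under 5% mitochondrial UMIs gave 7 higher against *Wfdc2*-low cells and 54 lower by index. A *Wfdc2* gate of 5 UMIs gave 383 higher against *Ltf+* cells and shares of 10.7%, 0.788% and 0.455%. The following settings were chosen after seeing the data. Subtracting free RNA of deeper uncalled barcodes gave 23 lower against *Wfdc2*-low cells, 427 and 404 against *Ltf+* cells and 0 and 1 by index. Leaving out cells with MEC or fibroblast UMIs gave 6 higher against *Wfdc2*-low cells and 0 higher by index. The causes were not tested.

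Leaving out each library gave 3 to 12 higher and 23 to 43 lower genes against *Wfdc2*-low cells, 424 to 576 and 403 to 557 against *Ltf+* cells, and 1 to 17 and 13 to 36 by index. The lowest counts came without male library 1 in the first 2 comparisons and without the female library by index. No gene named by the rule of largest changes reversed. Other genes called against *Ltf+* cells did change sign without the female library. Among them, the log2 fold change moved from -4.47 to 0.16 for *Il1b*, -3.41 to 0.18 for *Tyrobp* and -1.87 to 0.06 for *C1qa*. None of these passed the test there. Of the named genes' values under the alternatives, 210 kept their call and 87 lost it against *Wfdc2*-low cells, 305 and 6 against *Ltf+* cells, and 108 and 66 by index.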
